A study of Homo sapiens with 24 samples.

Results

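The 42 genes described here encode collagen chains, laminin chains and integrin subunits that A375 melanoma cells transcribed in DMSO. They were chosen by symbol (a collagen, laminin or integrin gene) and by a mean of at least 0.5 FPKM over the 6 DMSO libraries, where FPKM is a read measure corrected for the length of the transcript and for the reads mapped in each library. Of 25268 genes in the table, 86 have such a symbol, and 44 of these lay under the threshold. The 42 genes are 16 collagen chains, 7 laminin chains, 17 integrin subunits, and 2 genes whose symbol fits although they encode no subunit. These are ITGB1BP1, a protein that binds the cytoplasmic tail of integrin beta 1, and ITGB3BP, which binds that of beta 3 and is also part of the centromere.

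Collagens are trimers of alpha chains that form fibrils, networks or beaded filaments outside the cell. Laminins are trimers of an alpha, a beta and a gamma chain and, with type IV collagen, make up the basement membrane. Integrins are surface receptors of an alpha and a beta subunit that bind these proteins, and integrin alpha V beta 3 is known from invasive melanoma.

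A375 is an established human malignant melanoma line, and all groups are of this line. The 24 libraries fall into 8 groups of 3: A771726 at 25 µM, A771726 with nucleotides, nucleotides alone and DMSO (the solvent), each for 24 and for 48 h. A771726 is the active metabolite of leflunomide and inhibits dihydroorotate dehydrogenase, an enzyme of pyrimidine synthesis. The groups with nucleotides address which changes are seen when nucleotides are supplied beside the inhibitor. Which nucleotides were given, and at what dose, is not given in the sources used here.

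Total RNA was depleted of ribosomal RNA and sequenced, and in such bulk RNA fewer expressing cells and less RNA per cell cannot be told apart. In 22 of the 24 libraries the FPKM summed to between 459300 and 773000. The other two are replicates 1 and 2 of A771726 at 48 h, with sums of 231100 and 2284000. In replicate 2 the short RNA MIR3687 held 60.8% of the sum, 16198 genes were listed at 0, and 12 of the 42 genes were among them. The 24 h results and the time comparisons below therefore rest on the 21 libraries of the other 7 groups, and the 48 h A771726 group is described separately. At 24 h the A771726 libraries had lower sums (459300, 582700 and 545400) than nucleotides alone (713100, 693400 and 773000) and DMSO (740100, 729600 and 769500). With A771726 and nucleotides the 24 h sums were 631700, 573400 and 682500. A scaling to a common sum, used below as an alternative, makes these sums equal. Of 12 markers of the melanocytic lineage, 6 reached 0.5 FPKM in DMSO at 24 h (MITF, SOX10, S100B, S100A1, PAX3 and EDNRB), whereas PMEL, MLANA, TYR, TYRP1 and DCT, which mark pigment cells, did not.

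In DMSO the most abundant genes of the 42 were ITGB1, COL9A3, ITGA6, LAMB1, ITGB3 and COL4A2. These levels chose the genes and are given as a description. ITGB1, the beta subunit shared by most collagen and laminin receptors, had 86.3, 97.1 and 76.6 FPKM at 24 h and 94.8, 101 and 89.8 FPKM at 48 h. ITGA6, an alpha subunit of laminin receptors, had 64.2, 68.9 and 58.9 FPKM at 24 h and 68.3, 72.9 and 67.5 FPKM at 48 h. Both were high in all 6 DMSO libraries, with averages of 90.9 ± 8.66 and 66.8 ± 4.76 FPKM (SD, n = 6), and ITGB1 lay above ITGA6 in each. ITGB3 averaged 51.5 ± 16.5 FPKM (SD, n = 6), and its levels at 24 and 48 h did not overlap.

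Among collagens, COL9A3, a chain of the fibril-associated collagen IX, was the most abundant, with 73.9, 46.1 and 73.4 FPKM at 24 h and 80.6, 53.4 and 75.6 FPKM at 48 h. Replicate 2 was the lowest at both times. The paired chains of collagen IV, the network of basement membranes, averaged 48.6 ± 7.01 FPKM for COL4A2 and 37.7 ± 5.72 FPKM for COL4A1 (SD, n = 6). COL4A2 exceeded COL4A1 in each of the 6 DMSO libraries. COL5A2, a fibrillar collagen chain, averaged 34.1 FPKM, while COL5A1, its usual partner, averaged 0.389 FPKM and so falls outside the 42 genes. The main fibrillar chains of connective tissue were close to absent, at 0.0302 FPKM for COL1A1, 0.00423 FPKM for COL1A2 and 0.00991 FPKM for COL3A1.

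The laminin chains in DMSO were led by LAMB1 at 53.5 ± 9.04 FPKM, LAMC1 at 46.0 ± 8.11 FPKM and LAMA4 at 20.8 ± 1.45 FPKM (SD, n = 6). These 3 chains together form a laminin of basement membranes, named after its alpha 4, beta 1 and gamma 1 chains. LAMA1 and LAMA3, other alpha chains, averaged 0.105 and 0.166 FPKM and are not among the 42. Close to the threshold, COL6A3, ITGB7 and COL8A1 averaged 0.524, 0.521 and 0.516 FPKM, and COL11A2 averaged 0.586 FPKM. COL7A1 and LAMA2, at 0.415 and 0.405 FPKM, lay just under it.

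**Figure D1:**
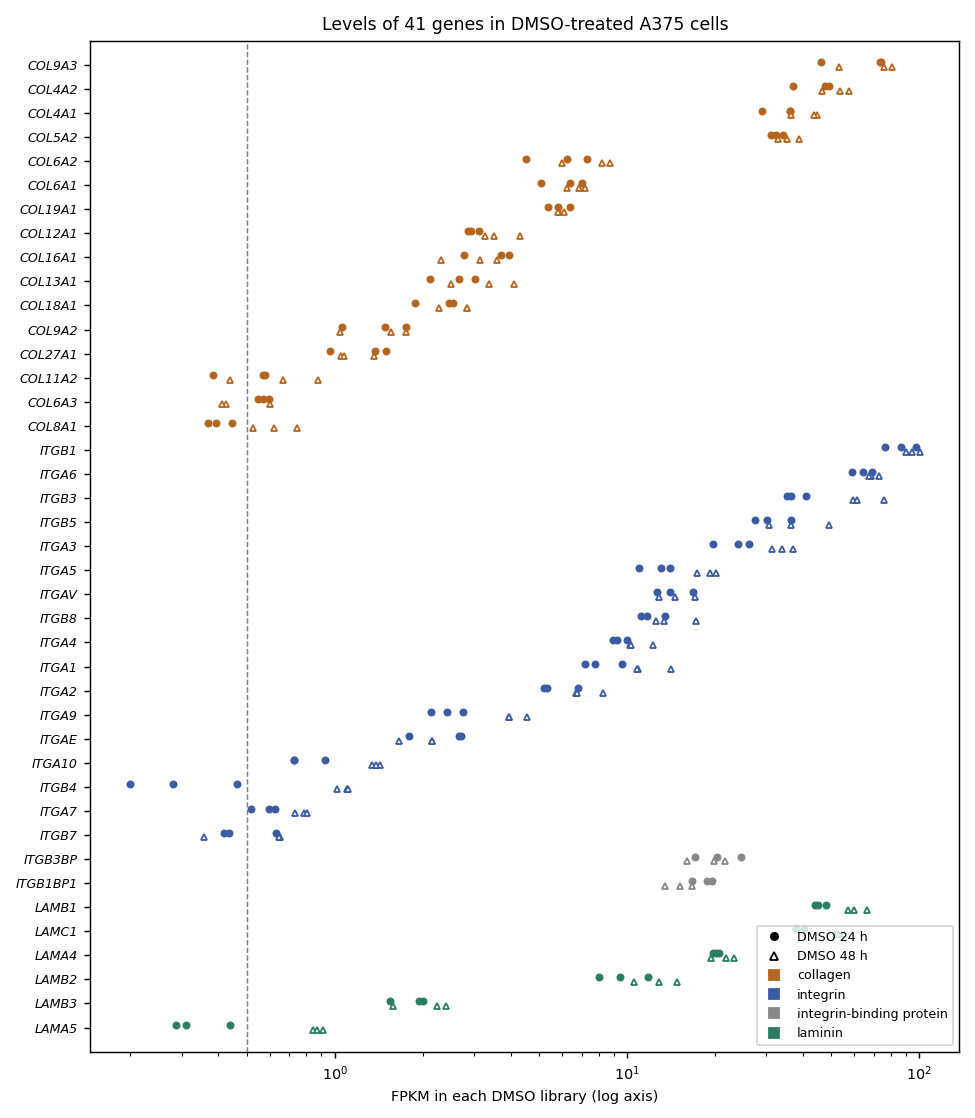
FPKM of 41 of the 42 genes in each DMSO library on a log axis, with filled circles for 24 h, open triangles for 48 h, colours for the gene families and a dashed line at the 0.5 FPKM threshold. ITGB1 lies furthest to the right at 76.6 to 101 FPKM, and COL8A1, ITGB7 and COL6A3 lie around the line.

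With A771726 at 24 h, all 3 collagen-binding integrin alpha subunits of the set (ITGA1, ITGA2 and ITGA10) were 2.85 to 3.94 times as abundant as with nucleotides alone. COL16A1, ITGB8, 5 laminin chains, COL9A2, COL11A2 and ITGA5 also rose, and COL5A2 and ITGA4 were among the genes that fell. In all, 13 of the 42 genes were higher and 3 were lower than with nucleotides alone, beside 13.6% and 10.2% of the 12682 genes tested (23.8% in either direction). Against DMSO the counts were 13 higher and 4 lower, beside 14.1% and 10.6% (24.7%). The DMSO levels chose the genes, so nothing is read from the counts against DMSO, and both comparisons share the A771726 libraries. Tests were made with limma on log2(FPKM + 1), and log2 changes below are on that scale, which understates changes of low genes. Called genes are those with a Benjamini-Hochberg adjusted p under 0.05 over all genes tested.

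The regions around the starts of ITGA1, ITGA2, ITGA10 and COL16A1 are shown because these genes are among the 5 with the largest log2 changes with A771726 at 24 h. The windows of 300 bases on GRCh38.p14 are from RefSeq, read 5′ to 3′ on the gene's strand, with matches to the searched motifs in capitals. They lie at chr5:52787666-52787965 (plus strand, ITGA1), chr5:52989102-52989401 (plus strand, ITGA2), chr1:145910001-145910300 (minus strand, ITGA10) and chr1:31703968-31704267 (minus strand, COL16A1).
ITGA1: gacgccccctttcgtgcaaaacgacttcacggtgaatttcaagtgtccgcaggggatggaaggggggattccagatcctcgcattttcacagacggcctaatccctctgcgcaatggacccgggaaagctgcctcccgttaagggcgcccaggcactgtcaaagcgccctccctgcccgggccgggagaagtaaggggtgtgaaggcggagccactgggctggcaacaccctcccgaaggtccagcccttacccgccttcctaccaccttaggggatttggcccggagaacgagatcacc
ITGA2: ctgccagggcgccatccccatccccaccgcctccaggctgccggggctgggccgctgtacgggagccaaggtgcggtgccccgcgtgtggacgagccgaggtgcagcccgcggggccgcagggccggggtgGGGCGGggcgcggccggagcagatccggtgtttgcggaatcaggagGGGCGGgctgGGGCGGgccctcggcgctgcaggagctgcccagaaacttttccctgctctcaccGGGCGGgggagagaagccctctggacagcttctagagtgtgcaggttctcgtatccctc
ITGA10: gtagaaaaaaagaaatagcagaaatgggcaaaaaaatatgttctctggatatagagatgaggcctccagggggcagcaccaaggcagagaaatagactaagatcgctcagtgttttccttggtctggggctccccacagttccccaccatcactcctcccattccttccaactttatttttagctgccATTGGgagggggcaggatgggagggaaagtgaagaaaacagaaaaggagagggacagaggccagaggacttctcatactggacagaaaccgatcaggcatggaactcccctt
COL16A1: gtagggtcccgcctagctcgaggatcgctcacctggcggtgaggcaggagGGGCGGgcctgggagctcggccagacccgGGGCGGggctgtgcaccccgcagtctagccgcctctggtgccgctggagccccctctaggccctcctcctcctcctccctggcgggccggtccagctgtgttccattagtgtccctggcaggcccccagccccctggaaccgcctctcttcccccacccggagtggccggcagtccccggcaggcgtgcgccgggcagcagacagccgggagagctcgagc
Searched on both strands were the TATA box (TATAAA), the CCAAT box, the GC box (GGGCGG), the AP-1 motif (TGANTCA) and the E-box (CACGTG), and no matches overlapped. ITGA2 holds 4 GC boxes, which begin at -119, -73, -63 and -9 from the start, and COL16A1 holds 2, at -200 and -171. ITGA10 holds a single CCAAT box on the opposite strand at -62, and ITGA1 holds none of the 5 motifs. Of 34943 windows of this length in the RefSeq table, 44.9% held a GC box and 34.6% a CCAAT box. Among the 32 of the 42 genes with a window, 62.5% held a GC box and 15.6% a CCAAT box, with a median GC content of 64.8% beside 58.7% over all windows. The TATA box, the AP-1 motif and the E-box were in 9.38%, 3.12% and 3.12% of the 32 windows, against 11.6%, 7.72% and 7.23% of all windows. A match describes the letters and is no evidence of a bound factor.

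ITGA2, the alpha subunit of the collagen receptor alpha 2 beta 1, had 20.7, 22.6 and 19.5 FPKM in A771726 libraries at 24 h. It had 6.25, 8.09 and 5.18 FPKM with A771726 and nucleotides, 5.50, 5.72 and 4.72 FPKM with nucleotides alone, and 5.34, 6.80 and 5.20 FPKM in DMSO. All 3 A771726 libraries lay above the 9 others at 24 h, and the other 3 groups overlapped. The log2 change was 1.80 ± 0.14 (SE) against nucleotides alone (limma adjusted p = 5.52e-08) and 1.70 ± 0.14 against DMSO (limma adjusted p = 1.11e-07). ITGA1, which pairs with beta 1 in the collagen IV receptor alpha 1 beta 1, had 25.8, 26.4 and 23.1 FPKM with A771726. It had 10.6, 13.0 and 7.90 FPKM with A771726 and nucleotides, 8.08, 8.33 and 7.14 FPKM with nucleotides alone, and 7.78, 9.65 and 7.18 FPKM in DMSO. Again the A771726 libraries stood above all others at this time. ITGA1 changed by 1.56 ± 0.15 against nucleotides alone (limma adjusted p = 8.03e-07) and by 1.51 ± 0.15 against DMSO (limma adjusted p = 1.24e-06).

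ITGA10, the subunit of a further collagen receptor best known from cartilage, was much less abundant. Its levels were 2.75, 2.28 and 2.53 FPKM with A771726, and 0.976, 0.940 and 1.14 FPKM with A771726 and nucleotides. They were 0.854, 0.810 and 0.984 FPKM with nucleotides alone and 0.724, 0.727 and 0.927 FPKM in DMSO. The A771726 libraries did not overlap with any other 24 h group, and ITGA10 changed by 0.90 ± 0.10 against nucleotides alone (limma adjusted p = 4.38e-06) and by 0.97 ± 0.10 against DMSO (limma adjusted p = 1.98e-06). ITGB1, the subunit with which these 3 pair, averaged 72.8 ± 9.20 FPKM with A771726, 83.0 ± 9.65 FPKM with nucleotides alone and 86.7 ± 10.3 FPKM in DMSO (SD, n = 3 each). Its change of -0.19 against nucleotides alone did not pass the test (95% interval -0.47 to 0.09, limma adjusted p = 0.332).

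ITGB8, the beta subunit of alpha V beta 8, which binds latent TGF-beta, was the only one of 6 beta subunits called with A771726 at 24 h. It had 27.6, 24.6 and 21.9 FPKM with A771726 and 14.2, 18.4 and 10.8 FPKM with A771726 and nucleotides. With nucleotides alone it had 12.0, 13.6 and 10.1 FPKM, and in DMSO 11.7, 13.5 and 11.2 FPKM. The A771726 libraries were above all others at 24 h, with a change of 1.00 ± 0.16 against nucleotides alone (limma adjusted p = 0.000233) and 0.96 ± 0.16 against DMSO (limma adjusted p = 0.000318). Its partner ITGAV averaged 17.9 ± 2.54 FPKM with A771726 and 14.8 ± 2.08 FPKM with nucleotides alone (SD, n = 3 each) and was not called (limma adjusted p = 0.217). ITGB3 and ITGB5, other partners of ITGAV, were not called either, with log2 changes of 0.25 and -0.01.

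**Figure D2:**
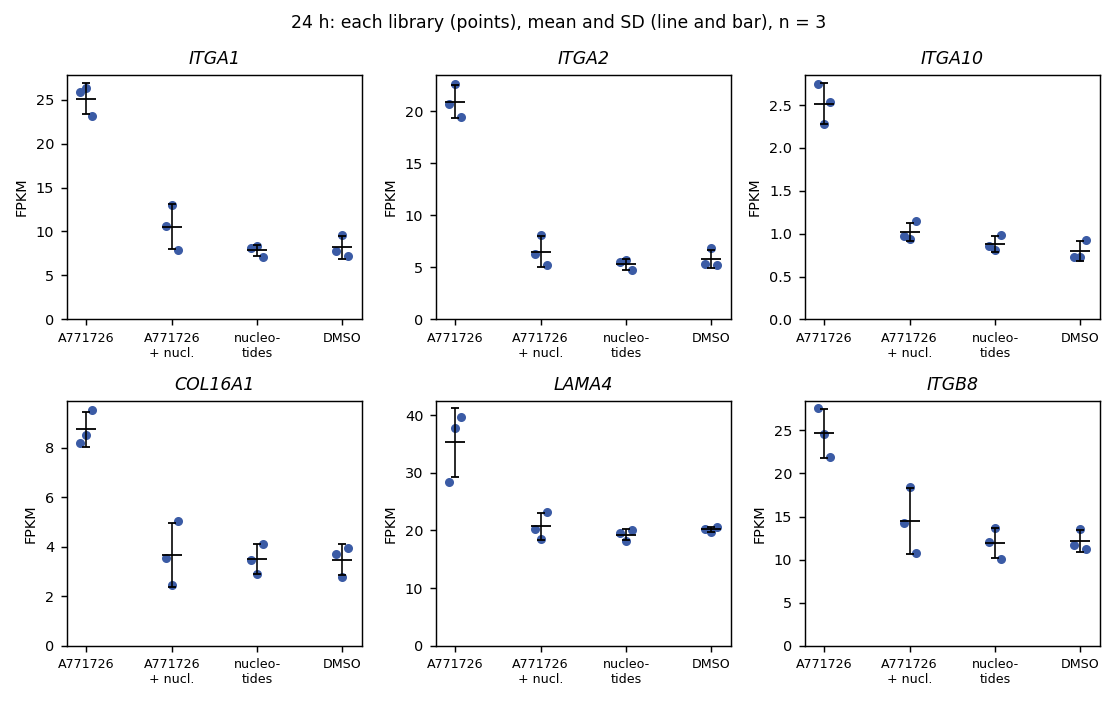
FPKM of ITGA1, ITGA2, ITGA10, COL16A1, LAMA4 and ITGB8 at 24 h, with points for libraries and lines for the mean ± SD of 3 libraries per group. In each panel the 3 A771726 libraries lie above the libraries of A771726 with nucleotides, nucleotides alone and DMSO; for LAMA4 the A771726 libraries run from 28.5 to 39.7 FPKM.

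Among the laminin chains, LAMA4, LAMB1, LAMB2, LAMB3 and LAMC1 rose with A771726 at 24 h against nucleotides alone and against DMSO. LAMA4 had 28.5, 37.7 and 39.7 FPKM with A771726, 20.3, 18.5 and 23.3 FPKM with A771726 and nucleotides, 19.6, 18.1 and 20.0 FPKM with nucleotides alone, and 20.2, 19.8 and 20.6 FPKM in DMSO. The A771726 libraries spread more than those of the other groups and still lay above all of them. The change was 0.83 ± 0.12 against nucleotides alone (limma adjusted p = 6.16e-05) and 0.76 ± 0.12 against DMSO (limma adjusted p = 0.000148).

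All 3 beta chains were called. LAMB2, the beta chain of laminins at synapses and in kidney, had 18.8, 13.6 and 17.9 FPKM with A771726, 11.1, 8.55 and 11.5 FPKM with nucleotides alone, and 9.44, 8.04 and 11.8 FPKM in DMSO. LAMB1, the common beta chain, had 78.2, 56.3 and 60.0 FPKM with A771726, 49.8, 44.5 and 45.0 FPKM with nucleotides alone, and 45.2, 44.1 and 48.0 FPKM in DMSO. In both genes the lowest A771726 library stood above the highest of the other two groups. LAMB2 changed by 0.64 ± 0.17 (limma adjusted p = 0.0131) and LAMB1 by 0.46 ± 0.13 (limma adjusted p = 0.018) against nucleotides alone. LAMB3, a beta chain of epidermal laminin, changed by 0.36 ± 0.11 (limma adjusted p = 0.0297), at 2.70 ± 0.421 FPKM with A771726 against 1.88 ± 0.172 FPKM with nucleotides alone (SD, n = 3 each). The calls against nucleotides alone were lost for LAMB2 without replicate 2 of nucleotides alone or 1 of A771726 (limma adjusted p = 0.0573 to 0.0724) and for LAMB1 without these or replicate 3 of nucleotides alone (limma adjusted p = 0.0569 to 0.1). That of LAMB3 was lost without any library of nucleotides alone and without replicate 1 or 3 of A771726 (limma adjusted p = 0.052 to 0.113).

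LAMC1, the gamma chain of most laminins, had 58.9, 48.7 and 52.1 FPKM with A771726, 44.3, 40.2 and 38.2 FPKM with nucleotides alone, and 37.8, 37.9 and 40.5 FPKM in DMSO. The A771726 libraries were all higher than the nucleotides-alone and DMSO libraries. LAMC1 changed by 0.37 ± 0.09 against nucleotides alone (limma adjusted p = 0.00765). LAMA5, an alpha chain, was not called, and its 3 A771726 libraries ran from 0.437 to 3.09 FPKM, with replicate 1 far above the other two. That library also had the highest ITGB4, at 1.09 FPKM against 0.221 and 0.375 FPKM in the other A771726 libraries.

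None of the 3 laminin-binding alpha subunits (ITGA3, ITGA6 and ITGA7) was called with A771726 against nucleotides alone or DMSO. ITGA3, a receptor subunit for epidermal laminin, had 20.6, 14.3 and 19.5 FPKM with A771726, 28.2, 29.5 and 33.8 FPKM with A771726 and nucleotides, 27.0, 20.9 and 29.6 FPKM with nucleotides alone, and 23.9, 19.7 and 26.1 FPKM in DMSO. Its A771726 libraries lay under those with nucleotides alone but overlapped with DMSO, and the change of -0.49 ± 0.18 against nucleotides alone did not pass (limma adjusted p = 0.0537). ITGA6 averaged 64.6 ± 5.24 FPKM with A771726 and 59.6 ± 5.02 FPKM with nucleotides alone (SD, n = 3 each), a difference of 0.11 with a 95% interval of -0.09 to 0.31.

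Among the other alpha subunits, ITGA5, the fibronectin receptor subunit, rose and ITGA4, which binds fibronectin and VCAM1, fell. ITGA5 had 20.9, 14.96 and 18.8 FPKM with A771726, 13.0, 11.0 and 13.8 FPKM with nucleotides alone, and 13.0, 11.0 and 14.0 FPKM in DMSO. ITGA4 had 6.91, 7.44 and 6.57 FPKM with A771726, 9.85, 11.0 and 8.82 FPKM with nucleotides alone, and 9.24, 10.0 and 8.97 FPKM in DMSO. Neither overlapped between A771726 and these groups. Against nucleotides alone ITGA5 changed by 0.49 ± 0.15 (limma adjusted p = 0.021) and ITGA4 by -0.45 ± 0.11 (limma adjusted p = 0.00684). The call of ITGA5 was lost without replicate 2 of nucleotides alone or replicate 1 or 3 of A771726 (limma adjusted p = 0.0606 to 0.0971). ITGAE, the subunit that binds E-cadherin and is best known from lymphocytes, had 1.11, 1.59 and 1.62 FPKM with A771726, 1.90, 1.88 and 2.34 FPKM with nucleotides alone, and 2.71, 1.80 and 2.67 FPKM in DMSO. It was called lower against DMSO (-0.47 ± 0.15, limma adjusted p = 0.0284) and not against nucleotides alone (-0.32 ± 0.15, limma adjusted p = 0.133), and the call was lost without replicate 1 or 3 of DMSO or replicate 1 of A771726 (limma adjusted p = 0.1 to 0.125).

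Of the 16 collagen chains, 3 rose and 1 fell with A771726 against nucleotides alone at 24 h, which is 25% beside 23.8% of all genes tested, so this count is no result about collagens. COL16A1, a fibril-associated collagen, had 8.17, 8.51 and 9.53 FPKM with A771726, 3.52, 2.47 and 5.04 FPKM with A771726 and nucleotides, 3.46, 2.90 and 4.10 FPKM with nucleotides alone, and 3.69, 2.77 and 3.96 FPKM in DMSO. No other 24 h library reached the lowest A771726 value. The change was 1.13 ± 0.17 against nucleotides alone (limma adjusted p = 0.000157) and 1.13 ± 0.17 against DMSO (limma adjusted p = 0.000154). COL9A2, a second chain of collagen IX, had 2.31, 2.45 and 2.64 FPKM with A771726, 1.48, 1.16 and 1.83 FPKM with nucleotides alone, and 1.76, 1.06 and 1.49 FPKM in DMSO. It changed by 0.49 ± 0.15 against nucleotides alone (limma adjusted p = 0.0244), whereas COL9A3, the far more abundant chain of the same collagen, was not called (0.24 ± 0.27, limma adjusted p = 0.557). COL11A2, a fibrillar chain close to the threshold, averaged 0.989 ± 0.139 FPKM with A771726 against 0.552 ± 0.134 FPKM with nucleotides alone (SD, n = 3 each; 0.36 ± 0.12, limma adjusted p = 0.0412). That call was lost in 10 of the 21 omissions of a single library (limma adjusted p = 0.0509 to 0.161), and the call of COL9A2 without replicate 1 or 2 of nucleotides alone or replicate 3 of A771726 (limma adjusted p = 0.06 to 0.114).

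COL5A2 was the only collagen that fell. It had 22.8, 23.7 and 24.2 FPKM with A771726, 31.4, 24.1 and 31.8 FPKM with A771726 and nucleotides, 32.8, 33.4 and 36.1 FPKM with nucleotides alone, and 34.1, 31.1 and 32.3 FPKM in DMSO. The A771726 libraries were below those of nucleotides alone and DMSO, with a change of -0.52 ± 0.10 against nucleotides alone (limma adjusted p = 0.00142). COL4A1 and COL4A2 averaged 30.7 ± 4.18 and 49.6 ± 15.2 FPKM with A771726, against 31.8 ± 3.39 and 45.6 ± 8.30 FPKM with nucleotides alone (SD, n = 3 each), and neither was called. ITGB1BP1 and ITGB3BP were not called.

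**Figure D3:**
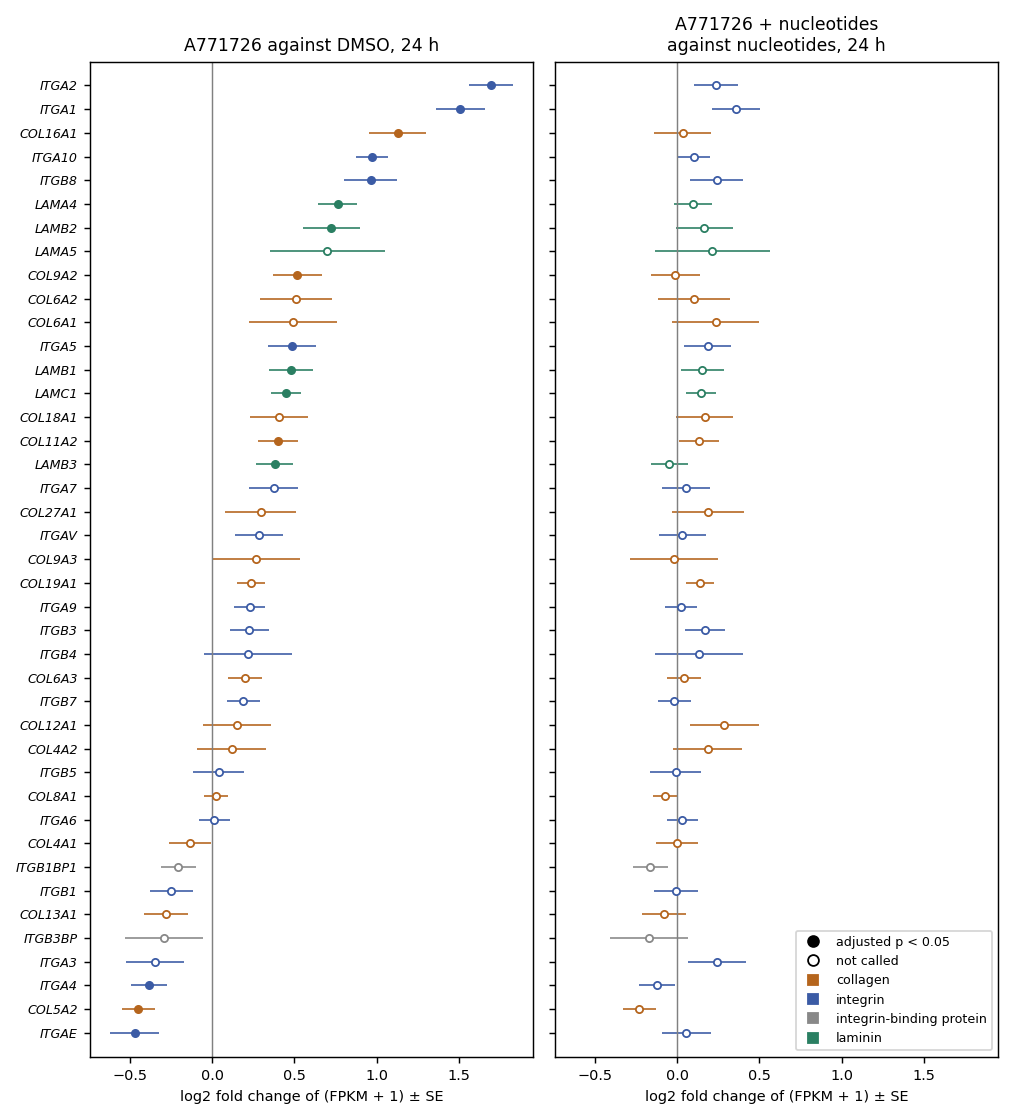
Log2 change ± SE of 41 of the 42 genes at 24 h on the log2(FPKM + 1) scale, on the left for A771726 against DMSO and on the right for A771726 with nucleotides against nucleotides alone, with filled points where the limma adjusted p is under 0.05. On the left 13 of the genes plotted are called higher and 3 lower, of which COL5A2 and ITGA4 turn positive (0.04 and 0.07) when every library is scaled to the same FPKM sum, and on the right none is called.

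The median log2 change of the 42 genes with A771726 against nucleotides alone was 0.24, beside 0.04 over all genes tested. Libraries did not overlap for 15 genes that were higher and 5 that were lower, beside 19.5% and 15.7% of all genes tested; against DMSO these were 17 and 4, beside 20.9% and 15.2%. The balance of calls moved with the scaling. When each library's FPKM was divided to a common sum (TPM scaling), the median of all genes against nucleotides alone became 0.43 and the 42 genes were called 27 higher and 1 lower, beside 47% and 2.24% of all genes, with changes of -0.07 for COL5A2 and -0.04 for ITGA4. With median-of-ratios scaling they were called 11 higher and 4 lower, beside 10.8% and 13.8%, ITGA3 among the lower ones. ITGA1, ITGA2, ITGA10, COL16A1, ITGB8, LAMA4, LAMB2, LAMB1, LAMC1, ITGA5 and COL9A2 kept their direction and call under both scalings. When the 3 libraries of A771726 at 48 h were added to the estimate of the spread (24 libraries), ITGA2 alone of the 42 stayed called against nucleotides alone (1.03% of all genes), and with only the libraries of the groups compared 7 did (9.54%).

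Markers of other cell types were read beside these results. With A771726 at 24 h the melanocytic markers summed to 131.4 to 158.1 FPKM, against 80.8 to 93.2 FPKM in DMSO, and 7 of 12 against 6 of 12 reached 0.5 FPKM. Fibroblast markers summed to 4.79 to 5.63 FPKM against 2.23 to 2.43 FPKM, with LUM, DCN and PDGFRB at or above 0.5 FPKM with A771726 (3 of 6, against 2 of 6 in DMSO). Endothelial markers summed to 2.52 to 3.36 FPKM against 0.882 to 1.01 FPKM, with KDR alone of 6 at or above 0.5 FPKM, and leukocyte markers to 24.0 to 37.2 FPKM against 7.54 to 8.64 FPKM, with LYZ and CD68 alone of 7 at or above it. Keratinocyte markers summed to 11.3 to 16.0 FPKM against 13.0 to 15.4 FPKM, with KRT14 and KRT10 of 6 above 0.5 FPKM. KRT1 was listed at 0 in both groups. The part of these markers in the results was not tested.

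With A771726 and nucleotides, 8 of the 42 genes fell and 2 rose relative to A771726 at 24 h, beside 12.5% and 6.02% of all genes tested (18.5% in either direction). The genes that fell were ITGA2, ITGA1, COL16A1, ITGA10, ITGB8, LAMA4, COL9A2 and LAMB3. ITGA2 averaged 6.50 ± 1.47 FPKM with A771726 and nucleotides, against 20.9 ± 1.59 FPKM with A771726 (SD, n = 3 each), a change of -1.56 ± 0.14 (limma adjusted p = 3.63e-07). ITGA1 averaged 10.5 ± 2.56 against 25.1 ± 1.75 FPKM and changed by -1.20 ± 0.15 (limma adjusted p = 1.65e-05). COL16A1 averaged 3.68 ± 1.29 against 8.74 ± 0.707 FPKM and changed by -1.09 ± 0.17 (limma adjusted p = 0.000239). For ITGA10, ITGB8 and LAMA4 the changes were -0.80 ± 0.10, -0.76 ± 0.16 and -0.73 ± 0.12 (limma adjusted p = 1.79e-05, 0.00283 and 0.000239). COL9A2 and LAMB3 changed by -0.50 and -0.41 (limma adjusted p = 0.0255 and 0.0178), and median-of-ratios scaling ended the call of COL9A2. Their calls were lost in 3 and 4 of the 21 omissions of a single library, with limma adjusted p up to 0.114 for COL9A2 (replicate 2 or 3 of A771726, or 2 of A771726 with nucleotides) and 0.0803 for LAMB3 (replicate 1 or 3 of A771726, or 1 or 2 of A771726 with nucleotides).

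Among the 2 genes that rose was ITGA3, by 0.73 ± 0.18 (limma adjusted p = 0.00716). ITGA3 was not called with A771726 against either control, and its level with A771726 and nucleotides, 30.5 ± 2.92 FPKM (SD, n = 3), was the highest mean of the 4 groups at 24 h; scaled to a common FPKM sum its call was lost. LAMB2, LAMB1, LAMC1 and ITGA5 were lower with nucleotides by 0.23 to 0.48 on the log2 scale without passing the test (limma adjusted p = 0.0696, 0.127, 0.104 and 0.171). Libraries did not overlap for 2 genes that were higher and 10 that were lower, beside 8.3% and 15.5% of all genes. TPM scaling called 1 gene higher and 18 lower, beside 2.55% and 27% of all genes, and median-of-ratios scaling 4 higher and 7 lower, beside 9.05% and 9.21%.

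Set against nucleotides alone, A771726 with nucleotides changed none of the 42 genes at 24 h by limma, beside 0.0315% of all genes; 2 of the 42 had an unadjusted p under 0.05, beside 2.41% of all genes. ITGA1 differed most among them, by 0.36 with a 95% interval of 0.05 to 0.67, and its A771726-with-nucleotides libraries (7.90 to 13.0 FPKM) overlapped with those of nucleotides alone (7.14 to 8.33 FPKM). Libraries did not overlap for 1 gene that was higher and 1 that was lower, beside 2.49% and 6.48% of all genes. COL5A2 lay at the other end, at -0.23 with an interval of -0.45 to -0.01. Nucleotides alone against DMSO likewise gave no call among the 42 at 24 h by limma, beside 0.00789% of all genes, with changes between -0.15 and 0.21. An unadjusted limma p under 0.05 was reached by 0 of the 42, beside 0.418% of all genes (53 genes). No gene of the 42 was without overlap in either direction, beside 1.79% higher and 1.32% lower.

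The change with A771726 without nucleotides minus that in their presence differed from 0 for 6 of the 42 genes, 5 positive and 1 negative, beside 5.61% and 2.2% of all genes (7.81% in either direction). The difference was 1.46 ± 0.19 for ITGA2 (limma adjusted p = 0.000102), 1.15 ± 0.21 for ITGA1 (limma adjusted p = 0.00178), 1.10 ± 0.25 for COL16A1 (limma adjusted p = 0.00925) and 0.87 ± 0.14 for ITGA10 (limma adjusted p = 0.000689). For LAMA4 it was 0.67 ± 0.17 (limma adjusted p = 0.0179), a call lost without replicate 3 of A771726 (limma adjusted p = 0.0528) and with median-of-ratios scaling (limma adjusted p = 0.0905). ITGB8, at 0.72 ± 0.23, did not pass (limma adjusted p = 0.0645). TPM scaling gave 9 positive and 1 negative, beside 15.2% and 1.05% of all genes, and median-of-ratios scaling 4 and 1, beside 4.02% and 3.13%.

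Changes between 48 and 24 h were tested in the 3 groups other than A771726. Called were 3 of the 42 genes with A771726 and nucleotides, 3 with nucleotides alone and 4 in DMSO. Of all genes tested, 2.02%, 1.41% and 1.97% were called in these groups. The called genes of the 42 were all higher at 48 h. ITGB3, the beta subunit of alpha V beta 3, rose in all 3 groups tested. It had 66.5, 61.3 and 74.4 FPKM at 48 h with A771726 and nucleotides, against 40.4, 44.3 and 40.2 FPKM at 24 h. With nucleotides alone it had 59.7, 53.6 and 73.4 FPKM at 48 h against 39.7, 34.0 and 37.2 FPKM at 24 h, and in DMSO 59.2, 61.2 and 76.0 FPKM against 36.5, 35.2 and 41.0 FPKM. Every 48 h library lay above every 24 h library of these groups. The log2 changes were 0.68, 0.73 and 0.78 ± 0.12 in that order of groups (limma adjusted p = 0.00642, 0.0074 and 0.00521).

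ITGA9, an alpha subunit that binds tenascin and pairs with beta 1, also rose in the 3 groups, by 0.61 with A771726 and nucleotides, 0.64 with nucleotides alone and 0.59 ± 0.10 in DMSO (limma adjusted p = 0.00272, 0.00394 and 0.00657). It had 4.72, 4.20 and 5.74 FPKM at 48 h with A771726 and nucleotides against 2.81, 2.77 and 2.90 FPKM at 24 h, and in DMSO 4.55, 3.96 and 3.96 FPKM against 2.43, 2.13 and 2.75 FPKM. The times did not overlap. LAMC1 rose with nucleotides alone (52.0, 52.7 and 60.9 against 44.3, 40.2 and 38.2 FPKM; 0.42, limma adjusted p = 0.0301) and in DMSO (52.1, 52.6 and 55.1 against 37.8, 37.9 and 40.5 FPKM; 0.45 ± 0.09, limma adjusted p = 0.0189). COL19A1, a fibril-associated collagen, rose with A771726 and nucleotides (8.92, 8.41 and 8.93 against 7.06, 6.99 and 5.92 FPKM; 0.35 ± 0.08, limma adjusted p = 0.04), and ITGA10 rose in DMSO (1.34, 1.42 and 1.38 against 0.724, 0.727 and 0.927 FPKM; 0.41 ± 0.10, limma adjusted p = 0.0398). Neither was called in the other two groups. The call of COL19A1 was lost with median-of-ratios and with TPM scaling, that of ITGA10 with median-of-ratios scaling and that of LAMC1 in DMSO with TPM scaling. The DMSO libraries also chose the genes, by their mean over both times, and whether the changes over time differ between groups was not tested.

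The genes called over time thus numbered 3 with A771726 and nucleotides, 3 with nucleotides alone and 4 in DMSO, beside 2.02%, 1.41% and 1.97% of all genes tested in either direction and 1.56%, 0.938% and 1.23% higher (0.457%, 0.473% and 0.741% lower). Libraries of the 2 times did not overlap for 18, 14 and 15 genes that were higher and for 3, 2 and 1 that were lower, beside 15.1%, 10% and 13.1% and beside 9.94%, 10.3% and 10.9% of all genes. ITGB3 and ITGA9 stayed called in all 3 groups whichever single library was left out and under both other scalings, but every call over time was lost with all 24 libraries and with only the libraries of the group compared. LAMC1 lost its call without any single library of the group compared (limma adjusted p = 0.0548 to 0.15 with nucleotides alone and 0.0523 to 0.106 in DMSO), so that 2 genes remained called in DMSO without any of the 6 DMSO libraries. ITGA10 in DMSO and COL19A1 with A771726 and nucleotides each lost their call in 13 of the 21 omissions (limma adjusted p = 0.0507 to 0.178 and 0.0506 to 0.16). Without replicate 1 of A771726 at 24 h, 5 genes were called with nucleotides alone (2.71% of all genes). Without the 3 libraries in which LAMA5 and ITGB4 stood out (replicate 1 of A771726 and 2 of A771726 with nucleotides at 24 h, and 3 of nucleotides alone at 48 h), the counts were 5, 4 and 11 in the same order of groups, beside 3.94%, 2.45% and 9.78% of all genes, a setting chosen after the data were seen. In DMSO, where same-numbered libraries deviated together, a fit with the replicate number as a block called 12 of the 42 genes, beside 7.6% of all genes. At 48 h, A771726 with nucleotides against nucleotides alone gave no call by limma, beside 0.0237% of all genes (0.00789% higher and 0.0158% lower). An unadjusted limma p under 0.05 was reached by 4 of the 42, beside 2.99% of all genes (379 genes). Libraries did not overlap for 5 genes that were higher and 4 that were lower, beside 5.68% and 4.71% of all genes. COL19A1 and LAMA4 came closest, by 0.47 ± 0.08 and 0.55 ± 0.12 (limma adjusted p = 0.0706 and 0.165). LAMA4 had 27.2, 25.2 and 31.2 FPKM with A771726 and nucleotides against 19.4, 19.1 and 17.6 FPKM with nucleotides alone at 48 h, and these did not overlap. Nucleotides alone against DMSO at 48 h gave no call by limma either, beside 0% of all genes, with changes from -0.20 to 0.42. An unadjusted limma p under 0.05 was reached by 0 of the 42, beside 1.17% of all genes (148 genes). No gene was higher without overlap and 1, LAMA4, was lower, beside 1.81% and 1.22%.

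**Figure D4:**
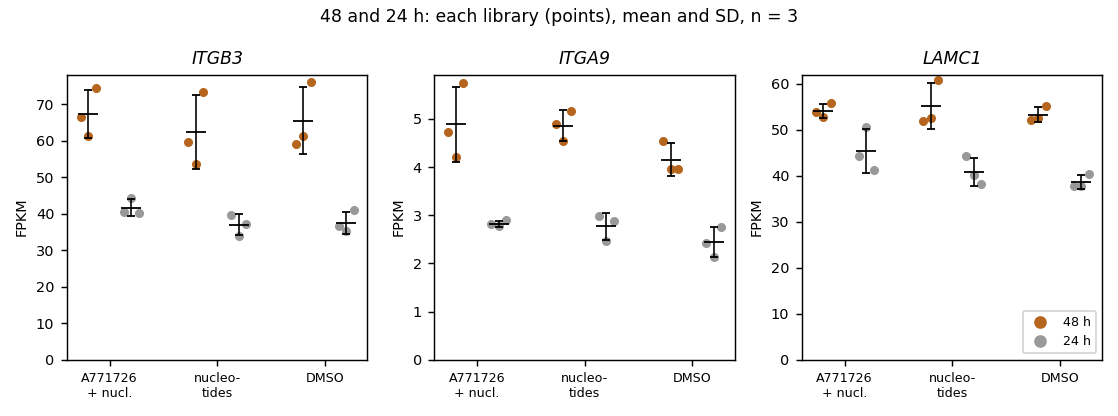
FPKM of ITGB3, ITGA9 and LAMC1 at 48 h (brown) and 24 h (grey) with A771726 and nucleotides, nucleotides alone and DMSO; points are libraries and bars the mean ± SD of 3. For ITGB3 all 48 h libraries lie at 53.6 to 76.0 FPKM and all 24 h libraries at 34.0 to 44.3 FPKM.

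With A771726 at 48 h, 4 of the 41 genes tested were higher than in DMSO and 19 were lower, beside 4.22% and 50.5% of the 13290 genes tested with all 24 libraries (54.7% in either direction). Libraries did not overlap for 2 genes that were higher and 18 that were lower, beside 3.98% and 41.6%. The median change of the 41 genes was -0.69 and that of all genes -0.76, so the count of lower genes says nothing particular about them. The DMSO levels chose the genes here too, so nothing is read from these counts. Without replicate 3 of DMSO at 48 h, 15 genes were called in place of 23, beside 44% of all genes. The 3 A771726 libraries differ widely from each other, so only genes called with all 3, without replicate 2 and with replicate 3 alone are described as changed. In the last of these fits the lone library is assumed to vary like those of the other groups. All 3 fits contain replicate 3, so they are not independent of each other. The share of all genes called in all 3 fits was not counted, so the number of such genes is no result about the 42. Higher in all 3 fits were ITGA2, COL16A1 and COL19A1, and lower in all 3 were ITGA3, ITGA9, ITGAE, ITGB5, COL4A1, COL4A2 and ITGB1BP1. Median-of-ratios scaling of all 24 libraries lost the calls of COL4A1, COL4A2 and ITGB1BP1, TPM scaling those of COL4A1 and COL19A1, and a fit of only the libraries of both groups lost all 10. The call of COL4A2 was also lost without replicate 1 of A771726 at 48 h (limma adjusted p = 0.0688), and that of COL19A1 in 23 of the 24 omissions of a single library (limma adjusted p = 0.0515 to 0.148). Without replicate 2 the counts were 7 higher and 19 lower, beside 6.23% and 53.8% of all genes, and with replicate 3 alone 8 and 9, beside 6.97% and 20.3%.

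ITGA2 had 28.1, 95.1 and 33.3 FPKM with A771726 at 48 h, against 6.68, 8.26 and 6.74 FPKM in DMSO, with no overlap. Its log2 change was 2.48 ± 0.30 (limma adjusted p = 2.17e-05) with all libraries, 1.95 without replicate 2 and 2.07 with replicate 3 alone. COL16A1 had 3.96, 19.0 and 5.89 FPKM against 3.61, 2.32 and 3.13 FPKM, and changed by 1.15 ± 0.34 (limma adjusted p = 0.0097); 2 of the 3 A771726 libraries stood well apart from DMSO and replicate 1 only just. ITGA3 had 3.28, 1.78 and 13.9 FPKM against 37.1, 31.3 and 33.9 FPKM, a change of -2.64 (limma adjusted p = 9.28e-05). ITGA9 had 1.12 and 1.96 FPKM in replicates 1 and 3 and was listed at 0 in replicate 2, against 4.55, 3.96 and 3.96 FPKM in DMSO, and changed by -1.48 (limma adjusted p = 0.000265). ITGB5 had 5.61, 14.6 and 22.4 FPKM against 36.3, 30.7 and 49.3 FPKM and changed by -1.54 (limma adjusted p = 0.000699). COL4A1 had 16.5, 28.7 and 22.8 FPKM against 44.6, 36.5 and 43.6 FPKM, and COL4A2 had 12.9, 46.5 and 25.2 FPKM against 57.5, 46.6 and 53.4 FPKM. They changed by -0.87 and -1.04 (limma adjusted p = 0.00127 and 0.0128). COL4A2 of replicate 2 lay next to the lowest DMSO library, and the other libraries of both genes were clearly lower. Against nucleotides alone at 48 h, whose levels did not choose the genes, a comparison added after the data were seen, 3 of 41 genes were called higher and 21 lower, beside 4.18% and 51.6% of all genes. Of the genes changed against DMSO in all 3 fits, all but COL19A1 (0.37, limma adjusted p = 0.0586) were called in the same direction in all 3 fits. ITGA2 changed by 2.59 and ITGA3 by -2.91 with all libraries (limma adjusted p = 1.6e-05 and 4.72e-05). COL18A1, COL5A2, COL6A1 and ITGB4 were called lower in all 3 fits against nucleotides alone, but not in all 3 against DMSO. With all libraries they changed by -0.80, -0.55, -1.32 and -1.26 against nucleotides alone.

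For the other collagen-binding subunits the 48 h values turned on replicate 2. ITGA1 had 105, 4.18 and 87.5 FPKM with A771726 at 48 h, against 10.9, 14.1 and 10.8 FPKM in DMSO. With all libraries it changed by 1.50 (limma adjusted p = 0.0662), and without replicate 2 by 2.91 (limma adjusted p = 1.89e-09). ITGA10 had 3.59 and 4.86 FPKM in replicates 1 and 3 and was listed at 0 in replicate 2, against 1.34, 1.42 and 1.38 FPKM in DMSO, a change of 0.33 (limma adjusted p = 0.47) with all libraries and 1.12 (limma adjusted p = 6.11e-06) without replicate 2. Replicate 2 was below DMSO for both genes while replicates 1 and 3 were several times above it. LAMA4 was likewise below DMSO in replicate 2 and above it in the others, by less, with 28.7, 2.48 and 48.8 FPKM against 21.8, 19.4 and 23.2 FPKM. ITGB8 had 10.9, 272 and 53.3 FPKM against 13.4, 17.2 and 12.6 FPKM and changed by 1.88 (limma adjusted p = 0.019), or by 0.73 without replicate 2 (limma adjusted p = 0.103).

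A771726 with nucleotides against A771726 at 48 h called 17 of 41 genes higher and 3 lower, beside 50.2% and 4.2% of all genes (54.4% in either direction). Libraries did not overlap for 17 and 2 genes, beside 44.3% and 4.74%. Of the lower genes, ITGA2 was called with all 3 A771726 libraries (-2.38, limma adjusted p = 3.25e-05), without replicate 2 and with replicate 3 alone, and so fell. ITGB8 (-1.67, limma adjusted p = 0.0336) and COL16A1 (-0.997, limma adjusted p = 0.021) were called with all libraries but not in all 3 fits. ITGA2 had 8.12, 8.46 and 6.94 FPKM with A771726 and nucleotides at this time, all below the A771726 libraries. The call of ITGB8 was lost without replicate 2 of A771726 or any library of A771726 with nucleotides (limma adjusted p = 0.0651 to 0.238), and that of COL16A1 without replicate 2 of A771726 or replicate 1 or 2 of A771726 with nucleotides (limma adjusted p = 0.0527 to 0.102) and with replicate 3 of A771726 alone (limma adjusted p = 0.0622). ITGA3, at 38.9, 36.6 and 44.3 FPKM with A771726 and nucleotides, was higher by 2.86 (limma adjusted p = 5.5e-05). Median-of-ratios scaling called 5 higher and 5 lower, beside 21.1% and 11.4% of all genes, and TPM scaling 13 and 3, beside 27.6% and 7.67%.

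**Figure D5:**
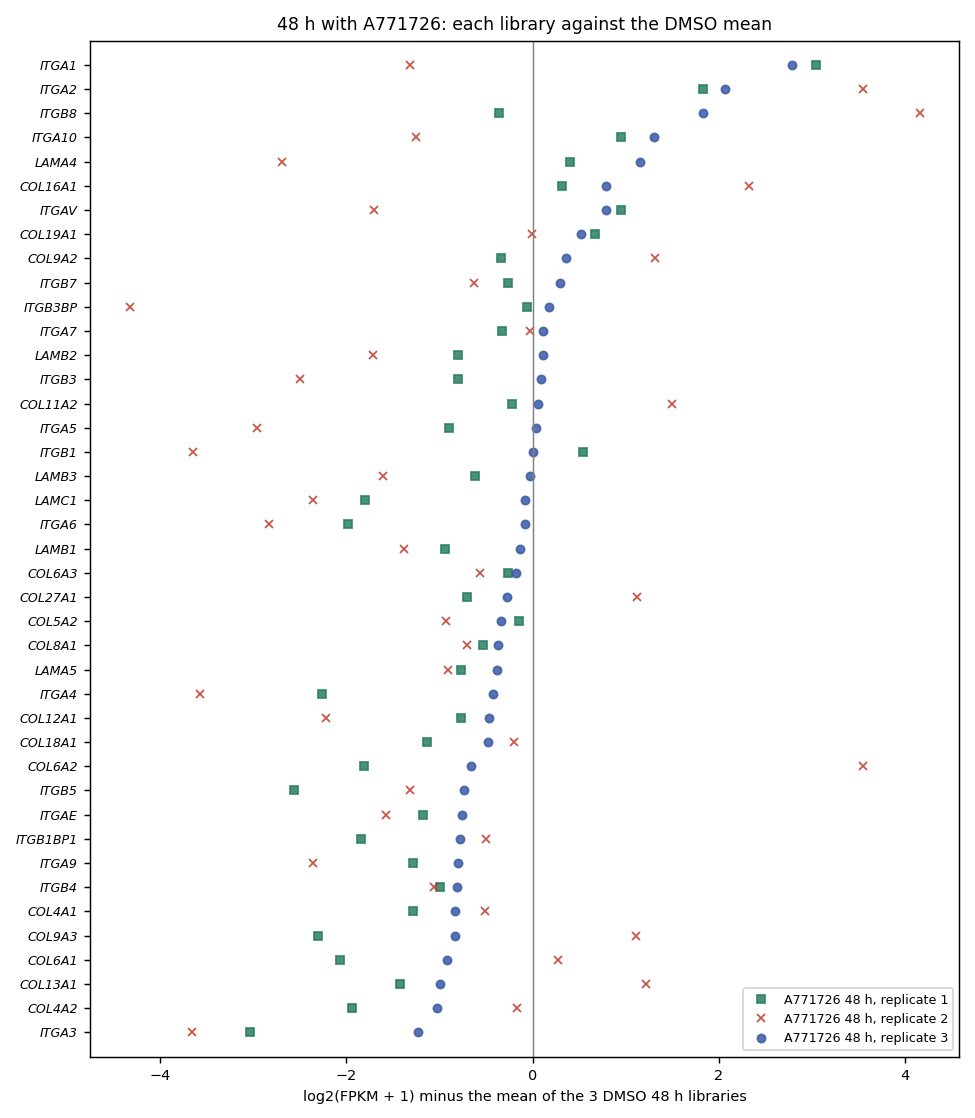
Each A771726 48 h library's log2(FPKM + 1) minus the mean of the 3 DMSO 48 h libraries, for 41 of the 42 genes, with squares, crosses and circles for replicates 1, 2 and 3. Replicate 2 lies apart from the others for many genes: for ITGA1 it is at -1.32 while replicates 1 and 3 are at 3.05 and 2.78.

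The other genes of matrix assembly and adhesion were read as 5 lists. Of 18 other matrix and basement membrane proteins tested, 10 rose and 2 fell with A771726 against DMSO at 24 h. That is 66.7% called, beside 24.7% of all genes tested, the share to which the other lists compare too. The median log2 change was 0.63, beside 0.04 over all genes. Against nucleotides alone 7 of these 18 rose and 2 fell (50% called, beside 23.8% of all genes), with a median of 0.54. SMOC1, a calcium-binding basement membrane protein, averaged 2.85 ± 1.28 FPKM with A771726 against 0.256 ± 0.0114 FPKM in DMSO (1.57 ± 0.17, limma adjusted p = 3.24e-06). The filter for testing took the mean over 21 libraries, A771726 at 24 h included, and SMOC1 lay under its 0.5 FPKM in DMSO. Its rise is therefore given as a description. The list's count of higher genes can include genes that passed the filter through the A771726 libraries. FBN1, the main protein of microfibrils, rose by 0.92 ± 0.12 (limma adjusted p = 3.84e-05). THBS1, thrombospondin 1, averaged 88.3 ± 28.1 against 200.3 ± 17.0 FPKM and fell by 1.21 on the log2 scale (limma adjusted p = 0.000485). EMILIN1 was not called (0.25 ± 0.26, limma adjusted p = 0.504). With A771726 and nucleotides against A771726 at 24 h, 1 of these 18 rose and 6 fell, beside 6.02% and 12.5% of all genes. In either direction 38.9% of the list was called, beside 18.5% of all genes.

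Among 22 collagen-processing enzymes and chaperones, 3 rose and 3 fell with A771726 against DMSO at 24 h (27.3% called, close to the 24.7% of all genes), with a median of 0.04. P4HA2, a subunit of the prolyl hydroxylase of collagens, averaged 20.8 ± 4.69 against 9.73 ± 0.822 FPKM (1.00 ± 0.16, limma adjusted p = 0.000199). P4HA1, its relative, rose by 0.61 ± 0.12 (limma adjusted p = 0.00115), and PPIB, a prolyl isomerase, changed by -0.72 ± 0.20 (limma adjusted p = 0.0155). P4HB, the other subunit of that hydroxylase, was not called (0.18 ± 0.18, limma adjusted p = 0.475). Of 17 matrix proteases and inhibitors 5 rose and none fell (29.4% called), among them TIMP1, an inhibitor of matrix metalloproteases, at 191 ± 16.2 against 96.8 ± 10.6 FPKM (0.98 ± 0.13, limma adjusted p = 3.2e-05). PLAT, tissue plasminogen activator, and MMP19 rose by 0.92 ± 0.14 and 0.56 ± 0.09 (limma adjusted p = 0.000171 and 0.000202), while TIMP3 was not called (0.19, limma adjusted p = 0.326).

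Of 27 integrin adaptor and focal adhesion genes, which include the member ITGB1BP1, 1 rose and 3 fell with A771726 against DMSO at 24 h (14.8% called), with a median of -0.03. CAV1, a caveolar protein linked to integrins, averaged 29.1 ± 2.93 against 61.3 ± 3.99 FPKM (-1.05 ± 0.11, limma adjusted p = 3.91e-06). KANK2 and CRK each changed by -0.45 (limma adjusted p = 0.0271 and 0.0102), changes that vanish with scaling to a common FPKM sum (-0.0032 and 0.04), and FLNA was not called (0.06, limma adjusted p = 0.897). Of 16 other matrix receptors, 2 rose and 1 fell (18.8% called). These were the syndecans SDC2 and SDC4, by 0.65 ± 0.11 and 0.53 ± 0.07 (limma adjusted p = 0.000373 and 2.8e-05), and RPSA, a ribosomal protein also described as a laminin receptor, by -0.56 (limma adjusted p = 0.027), whose many pseudogenes make its level uncertain. CD151 was not called (-0.22, limma adjusted p = 0.586).

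Over the 7 group means other than A771726 at 48 h, the genes whose log2 pattern was most like that of ITGA2 were SSUH2, NOX4 and TGFA, each with a Pearson correlation of 0.997. For ITGA1 they were AHI1, GSTM2 and ABHD8 (0.997, 0.996 and 0.995), for COL16A1 MRGPRX3, FGFBP2 and LOC100130093 (0.998, 0.997 and 0.996), and for ITGB8 ABHD8, MOCOS and ANG (0.993, 0.992 and 0.991). These are descriptions over 7 points of the same table. For ITGA2, ITGA1, COL16A1 and ITGB8 the mean of A771726 at 24 h stands apart from the other 6. ITGA1 and ITGA2 lie on chromosome 5, where PELO shares the RefSeq start and strand of ITGA1 and MOCS2 follows ITGA2. These 2 other genes, chosen after their values were seen, were not called with A771726 against DMSO at 24 h. PELO changed by 0.21 ± 0.15 (limma adjusted p = 0.326) and MOCS2 by 0.41 ± 0.21 (limma adjusted p = 0.174).

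Reads of some of the 42 genes may be shared with neighbours, since the strand setting of the authors' counting is not given in the sources used here. In GENCODE 29, 12 of the 42 have an exon that overlaps an exon of another coding gene and 21 have one that overlaps an exon on the opposite strand. ITGA1 overlaps PELO on the same strand, with which it also shares its RefSeq start, and PELO was not called. Among the other genes described as changed, coding genes overlap LAMB1 (DLD), ITGAE (HASPIN), ITGB1BP1 (ASAP2), ITGB3 (AC068234.1), COL19A1 (LMBRD1) and COL18A1 (SLC19A1). On the opposite strand, exons of genes not marked as coding overlap ITGA1, ITGA10, COL16A1, ITGB8, LAMA4, ITGA5, ITGA9, ITGAE, LAMB1 and COL4A2. On the same strand, such exons overlap ITGA1 (AC022133.1) and LAMB3 (MIR4260). Reads of each pair cannot be told apart there. COL4A1 and COL4A2 start 127 bases apart on opposite strands of chromosome 13, and 226 bases of their promoter windows are shared.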

How the data were processed

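RNA from A375 cells was measured in 24 libraries (8 groups of 3, paired-end reads of 100 bp). The submitters' processing notes name cutadapt, TopHat2 2.0.11, Cufflinks 2.2.1 and the build hg19. Filters, annotation and strand setting are not named there. The authors deposited FPKM per gene, used as deposited; read depth is unknown, so no count test was run and no counting interval is given. The labels do not say that replicates came from separate cultures, and p-values cover the spread of these libraries alone, which may be technical. No pair of the 276 pairs of libraries shared over 0.0117% identical values.

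From the deposited FPKM, log2(FPKM + 1) was computed, and genes averaging 0.5 FPKM or more over the libraries fitted were kept (12682 genes with 21 libraries, 13290 with 24, where COL8A1 of the 42 was not tested). Groups were fitted together with limma 3.58.1 in R 4.3.3, with Benjamini-Hochberg adjustment over all genes tested in each of 13 comparisons and a threshold of 0.05. The procedure was tested on simulated data. Replicate numbers were used as a block only in an alternative fit: the deviations of same-numbered libraries correlated above 0.1 in every pair for 48 against 24 h in DMSO alone (0.126, 0.302 and 0.136).

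The values of 1 of the 42 genes and of 1 marker are not reported here, though counts and sums include them. The 42 genes and all lists were chosen with earlier results of these data known. Values per library are given for the 15 genes with the largest log2 changes over the 3 main 24 h comparisons (A771726 against DMSO and against nucleotides alone, and A771726 with nucleotides against A771726), for those called in the difference of changes or over time, and for the most abundant of each family; from each other list up to 3 called genes and 1 not called were named. The alternatives were 2 other scalings, pseudocounts, filters, libraries and the block. RefSeq promoter windows and GENCODE 29 exons served for annotation.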

Additional observations from a re-analysis of the deposited data

Results flagged for a closer look

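For ITGA2, ITGA1, COL16A1, ITGA10 and LAMA4 the change with A771726 at 24 h differed between cells without and with nucleotides by limma's test of the difference. On the log2(FPKM + 1) scale the difference was 1.46 for ITGA2, 1.15 for ITGA1, 1.10 for COL16A1, 0.87 for ITGA10 and 0.67 for LAMA4.

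For 3 genes all A771726 libraries lay on opposite sides of the DMSO libraries at the 2 times, below at 48 h and above at 24 h. Of all genes tested, 41.6% were lower without overlap at 48 h and 20.9% higher without overlap at 24 h. The share of all genes with both was not counted, so nothing particular to the 42 genes is read from this. The 48 h changes were -1.48 for ITGA9, -0.82 for LAMB1 and -1.42 for LAMC1, against 24 h changes of 0.23, 0.48 and 0.45. LAMC1 had 14.5, 9.56 and 50.2 FPKM with A771726 at 48 h, and replicate 3 lay just below the DMSO libraries. The difference between the times was not tested. Median-of-ratios and TPM scaling each ended the 48 h calls of LAMB1 and LAMC1. LAMB1 and LAMC1 were not called with replicate 3 as the lone A771726 library at 48 h, whereas ITGA9 was. At 24 h ITGA9 was not called (limma adjusted p = 0.0942).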

How the results depend on the processing

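The counts of called genes among the 42 moved most with the scaling, the libraries fitted and the block. For A771726 against DMSO at 24 h, 17 became 31 with TPM scaling, 26 with the replicate block, 1 with all 24 libraries and 7 with only the groups compared (12 to 20 leaving out a single library). The share of all genes called was 24.7% as reported and 54.7%, 36.6%, 1.04% and 9.88% in these settings. Against nucleotides alone, 16 became 28, 1 and 7 with TPM, 24 libraries and the groups alone (11 to 17), beside 49.2%, 1.03% and 9.54% of all genes. For A771726 with nucleotides against A771726, 10 became 19, 17, 1 and 4 with TPM, block, 24 libraries and the groups alone (8 to 12), beside 29.5%, 28.7%, 0.813% and 3.73%, and for the difference of changes 6 became 10, 13 and 0 with TPM, block and 24 libraries (5 to 8), beside 16.3%, 15.6% and 0.0828%. Over time, 3 with A771726 and nucleotides became 14 with the block (8.18% of all genes) and 5 without the 3 libraries high in LAMA5 and ITGB4 (2 to 4), 3 with nucleotides alone became 5 without a filter, 9 with TPM (3.72%) and 13 with the block (6.43%; 2 to 5), and 4 in DMSO became 12 with the block and 11 without those 3 libraries (2 to 6). All 3 became 0 with 24 libraries and with the groups alone. For A771726 with nucleotides against nucleotides alone at 48 h, 0 became 1 without a filter, 1 with TPM and 2 with the block (0 to 2). Of all genes, 3 (0.0237%) were called as reported, 9 higher and 2 lower with TPM, and 28 (0.221%) with the block. At 48 h, 23 for A771726 against DMSO became 13 with median-of-ratios scaling, 14 with TPM and 0 with the groups alone (15 to 27), beside 32.8%, 29.5% and 0.0671%, and 20 for A771726 with nucleotides against A771726 became 10 and 0 with median-of-ratios and the groups alone (14 to 27), beside 32.5% and 0.0524%. The remaining 3 comparisons gave 0 in every setting run. Deviations of same-numbered libraries correlated above 0.1 in every pair only for time in DMSO. A771726 against nucleotides alone at 24 h came close to that threshold (0.145, 0.260 and 0.0961). A replicate effect shared by other groups was not tested further. Of 3144 recomputed values for 98 single-gene results, 2765 kept direction and call, 368 kept direction without the call and 11 reversed. The reversed ones are A771726 against DMSO at 24 h with TPM (COL5A2 0.036, ITGA4 0.066); at 48 h with median-of-ratios (COL5A2 0.26) or replicate 3 alone (ITGA5 0.036, ITGB3 0.089, LAMB2 0.11); and A771726 with nucleotides against A771726 at 48 h with median-of-ratios (COL5A2 -0.24, LAMB1 -0.069) or replicate 3 alone (ITGB3 -0.042, LAMB1 -0.0070, LAMB2 -0.058). The cause of these shifts was not tested. Depth is unknown, so the precision of low genes such as ITGA10 and COL11A2 cannot be given.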
